A study of Mus musculus with 9 samples.

Results

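The genes described here carry peptides to the cell surface on MHC class I or encode PD-L1, the ligand that restrains T cells through PD-1. The members were listed by name: the class I heavy chains H2-K1 and H2-D1, the light chain B2m, the peptide transporter and its partner (Tap1, Tap2 and Tapbp), the immunoproteasome subunits Psmb8 and Psmb9, the class I transactivator Nlrc5, and Cd274, the gene of PD-L1. Of these 10 genes, 9 had a probe set among the 22206 on the array, with 1 probe set each, and Nlrc5 was not analysed here. Their messenger RNA was read on 9 Clariom S arrays of E0771 cells, a mammary tumour line from C57BL/6 mice that was grown in culture. There were 3 arrays of cells with the short hairpin RNA shPC28, 3 with shPC25 and 3 with a scrambled hairpin (scram). Both shPC hairpins target Pcx, the gene of pyruvate carboxylase, which makes oxaloacetate from pyruvate in mitochondria. All 3 groups had received a lentiviral hairpin vector and grown under puromycin selection, and none was treated further. The medium held 10% FBS, glutamine at 4 mM and glucose at 5.6 mM. No label says that the arrays of 1 group came from separate cultures, and the p-values therefore cover the spread among these samples alone, part or all of which may be technical.

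Class I molecules show fragments of a cell's own proteins to cytotoxic T cells. The proteasome cuts the fragments, the TAP transporter carries them into the endoplasmic reticulum, and tapasin holds an empty heavy chain and its light chain beside the transporter until a peptide is bound. Tumour cells that show less class I are seen less well by cytotoxic T cells and can be more exposed to natural killer cells, and interferon gamma is a known inducer of most of these genes and of Cd274.

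The control region of several of these genes is short and shared in plan, and the stretches that carry it are shown so that the letters behind the motif names can be read beside the signals of the factors given further on. RefSeq promoter windows on GRCm38.p6, from 250 bases before to 50 bases after the start, were found for 8 of the 10 genes. They were searched on both strands for a kappa B element (GGGGATTCC), the core of the X2 box (TGACG), the CCAAT box (CCAAT), the core of the interferon-stimulated response element (ISRE) and the GAS element (TTCNNNGAA). Capitals mark the matches, each line is read 5′ to 3′ on the strand of its gene, and each stretch lies before the start: H2-K1 on the minus strand of chr17:34000359-34000458, H2-D1 on the plus strand of chr17:35262923-35263022, and B2m on the plus strand of chr2:122147548-122147638.
H2-K1: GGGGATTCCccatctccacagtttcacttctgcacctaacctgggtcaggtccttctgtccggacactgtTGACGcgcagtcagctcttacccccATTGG
H2-D1: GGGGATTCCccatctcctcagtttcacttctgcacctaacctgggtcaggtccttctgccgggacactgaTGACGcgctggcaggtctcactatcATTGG
B2m: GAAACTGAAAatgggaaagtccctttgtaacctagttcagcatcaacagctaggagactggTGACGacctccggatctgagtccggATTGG
The stretches of H2-K1 and H2-D1 held the kappa B match, the X2 core and the CCAAT box (here read on the other strand, as ATTGG) at the same spacing, and 89 of their 100 bases were equal. B2m had the X2 core and the CCAAT box in the same order, with a match to the interferon response element in front.

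Tap1 and Psmb9 are transcribed away from each other from starts 226 bases apart, and their windows shared 275 of 300 bases. Part of the stretch between them is shown on the strand of Tap1 (plus strand of chr17:34187334-34187474). It is followed by part of the Psmb8 window (plus strand of chr17:34198075-34198125) and the bases before the start of Cd274 (plus strand of chr19:29367188-29367437).
Tap1: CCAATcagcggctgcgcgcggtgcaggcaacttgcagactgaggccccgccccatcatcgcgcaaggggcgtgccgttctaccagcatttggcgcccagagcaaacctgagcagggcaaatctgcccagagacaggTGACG
Psmb8: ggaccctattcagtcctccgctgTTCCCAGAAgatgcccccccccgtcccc
Cd274: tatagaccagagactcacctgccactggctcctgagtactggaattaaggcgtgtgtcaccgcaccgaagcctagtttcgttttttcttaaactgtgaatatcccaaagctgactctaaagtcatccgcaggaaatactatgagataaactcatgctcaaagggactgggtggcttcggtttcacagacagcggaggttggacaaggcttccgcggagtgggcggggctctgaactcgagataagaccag
The X2 core was in 5 of the 8 windows (H2-K1, H2-D1, B2m, Tap1 and Psmb9) and in 20.8% of all 32851 windows. The CCAAT box was in 6 of 8, the same genes and Tapbp, and in 37.4% of all. For both motifs, the matches of Tap1 and Psmb9 are the same bases read from opposite strands, so a shared site is counted for both genes. The kappa B element was in 2 of 8 and 0.25% of all, the interferon response core in 1 of 8 (B2m) and 3.44% of all, and the GAS element in 1 of 8 (Psmb8) and 8.3% of all. The Cd274 window held none of these letter strings. A match is a description of letters, not a shown binding site. Only these exact strings were sought, so a window without a match, as H2-K1 and H2-D1 for the interferon response core, may hold another form of the element.

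**Figure D1:**
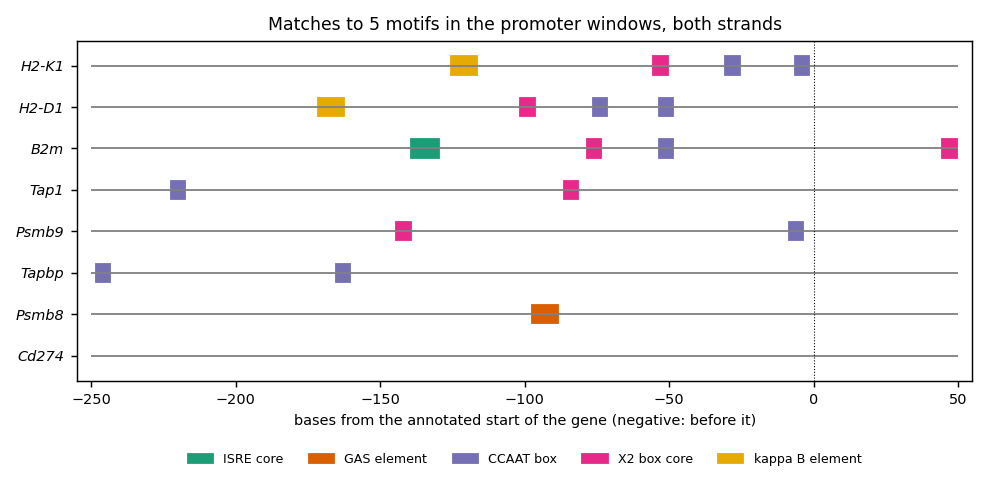
Each grey line is the promoter window of 1 gene, from 250 bases before its annotated start (dotted) to 50 bases after it, and each coloured block is a match to 1 of 5 motifs on either strand. Matches to the X2 core and the CCAAT box lie before the start in H2-K1, H2-D1, B2m, Tap1 and Psmb9, and no block lies in Cd274.

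Values are log2 signals, as the authors normalized them between arrays, and array medians lay between 4.88 and 5.04. A log2 difference between groups was tested with limma across all 22206 probe sets, and a gene is said to have risen, fallen or changed where its Benjamini-Hochberg adjusted p was under 0.05. With 3 arrays against 3, an exact permutation test of a single gene cannot go below p = 0.1. Signals of different probe sets are not set against each other, since probe sets differ in affinity. As a yardstick for genes these cells are not known to use, the 95th percentile of 1414 olfactory and vomeronasal receptor probe sets was taken on each array. It lay at 4.52, 4.47 and 4.62 with shPC28, at 4.40, 4.33 and 4.30 with shPC25, and at 4.21, 4.27 and 4.27 in scram. The 7 measured leukocyte markers lay under it on all 9 arrays. Of the 5 epithelial markers, Krt8, Epcam and Cdh1 lay above it on all 9 arrays, Krt18 on 1 and Krt19 on 0. Of the 4 mesenchymal markers, Vim, Zeb1 and Snai2 lay above it on all 9 and Fn1 on 0. Of the 3 measured fibroblast markers, Col3a1 and Dcn lay above it on 0 arrays and Col1a1 on all 9, and Col1a1 fell with both hairpins (-0.63 with shPC28, adjusted p = 0.00866, and -0.96 with shPC25, adjusted p = 0.00283). Of the 3 endothelial markers, Pecam1 lay above it on 8 arrays and Cdh5 and Kdr on 0. What part other cells have in the results was not tested. Pcx, the targeted gene, read 7.01, 6.85 and 6.57 with shPC28, 5.64, 5.43 and 5.53 with shPC25, and 9.18, 8.84 and 9.20 in scram. It fell with both hairpins, by 2.26 log2 units with shPC28 (adjusted p = 4.13e-06) and by 3.54 with shPC25 (adjusted p = 1.28e-05), so the hairpin with the lower Pcx signal was shPC25.

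Cd274 fell with both hairpins, more with shPC28 than with shPC25, while the class I pathway did not move as a block. With shPC28, H2-K1 and Tap2 also fell and Psmb8 rose. With shPC25, H2-K1, H2-D1 and Psmb9 also fell. The counts were 4 of 9 members changed with shPC28 (1 higher and 3 lower), against 41.7% of all probe sets called in that comparison, and 4 of 9 with shPC25 (all 4 lower), against 20.4% of all. The shares of members were 44.4% in both comparisons, so with shPC28 the count was near its background. The median log2 change of the 9 members was -0.07 with shPC28 and -0.33 with shPC25, where the medians of all probe sets were 0.10 and 0.04. Both comparisons used the same 3 scram arrays.

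Without regard to the test, the 3 arrays of shPC28 and of scram did not overlap for 4 members, against 51.1% of all probe sets. The arrays of shPC25 and of scram did not overlap for 8 members, against 38.9% of all, and the exception was Tapbp. With the mean of both hairpins set against scram, 4 members changed, all lower, against 36.2% of all probe sets called. These were Cd274 (log2 change -1.81 as measured, with its shPC28 signal near background as given below, adjusted p = 5.47e-05), Tap2 (-0.56, adjusted p = 0.00661), H2-K1 (-0.48, adjusted p = 0.00229) and H2-D1 (adjusted p = 0.0496). The call of H2-D1 was lost without any 1 of the 9 arrays (adjusted p 0.0558 to 0.151).

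**Figure D2:**
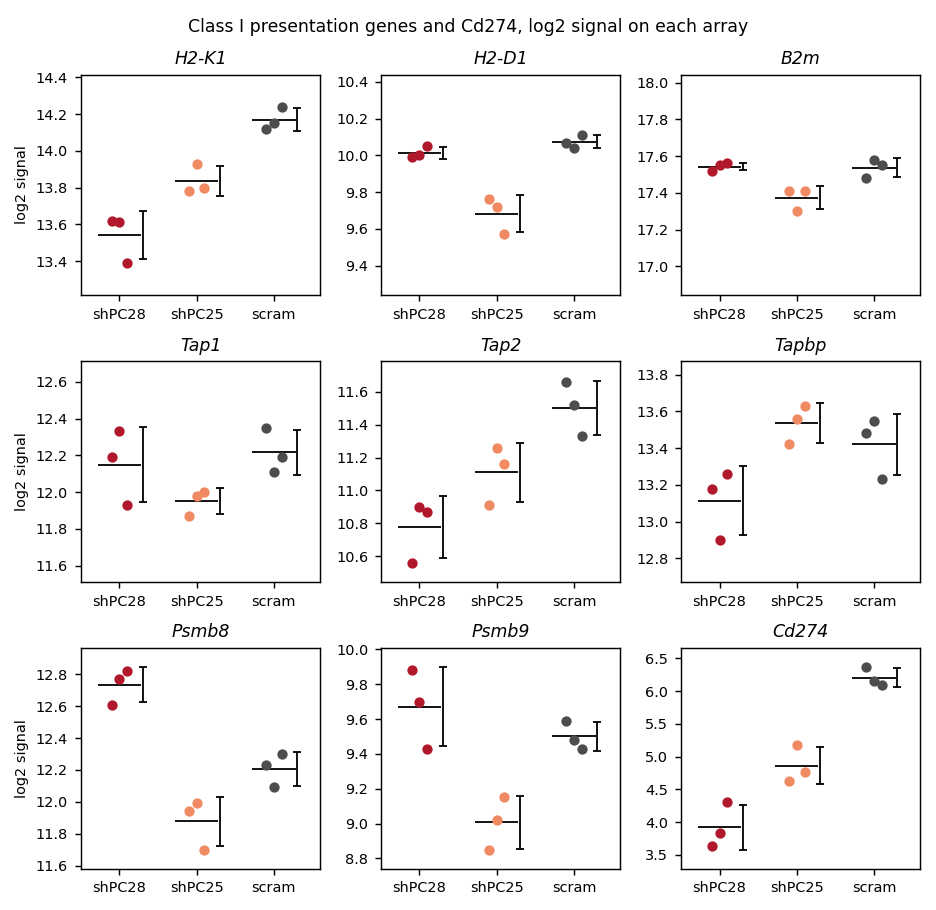
Log2 signal (y axis, a separate range in each panel) of the 9 measured genes on each array, in the order shPC28, shPC25 and scram, with points for arrays, bars for group means and error bars for the SD over 3 arrays. Cd274 and H2-K1 are lowest with shPC28, and H2-D1, Psmb8 and Psmb9 are lowest with shPC25.

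H2-K1 encodes the heavy chain H-2K, which presents peptides to CD8+ T cells. It read 13.62, 13.61 and 13.39 with shPC28, 13.78, 13.93 and 13.80 with shPC25, and 14.12, 14.15 and 14.24 in scram. All 6 hairpin arrays lay below the scram arrays, and the shPC28 arrays lay below the shPC25 arrays. The fall was 0.63 log2 units with shPC28 (1.55-fold, 95% interval -0.86 to -0.40, adjusted p = 0.000894) and 0.33 with shPC25 (1.26-fold, interval -0.56 to -0.10, adjusted p = 0.0481). The shPC28 call held under all 19 alternative settings of the fit. That of shPC25 sat at the threshold: the adjusted p was 0.0557 to 0.146 without any 1 of 8 arrays (all but shPC28 replicate 3), and 0.141 with each array centred on its median.

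H2-D1 encodes H-2D, the other classical heavy chain of this mouse background, and its promoter stretch shown above is close to that of H2-K1. It read 9.99, 10.00 and 10.05 with shPC28, 9.76, 9.72 and 9.57 with shPC25, and 10.07, 10.04 and 10.11 in scram. The shPC25 arrays lay below all others, and the shPC28 and scram arrays overlapped. With shPC25 the fall was 0.39 log2 units (1.31-fold, interval -0.59 to -0.19, adjusted p = 0.0155), and with shPC28 the difference was -0.06 (interval -0.26 to 0.14, adjusted p = 0.629). The adjusted p with shPC25 was 0.0577 without scram replicate 3, 0.0556 without shPC25 replicate 3 and 0.0615 after quantile normalization. H-2 heavy chain genes are related in sequence, so part of a signal may come from a related transcript, and this was not tested.

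Taken within each array, H2-K1 minus H2-D1, set to 0 at its scram mean, was -0.47, -0.49 and -0.76 with shPC28, -0.08, 0.11 and 0.13 with shPC25, and -0.05, 0.01 and 0.03 in scram. The balance of the heavy chain signals thus stood apart from scram on the shPC28 arrays and overlapped it on the shPC25 arrays. This difference was chosen after the values were seen and was not tested.

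B2m encodes beta-2 microglobulin, the light chain of every class I molecule, and its probe set had a higher mean than 99.9% of all probe sets. It read 17.52, 17.55 and 17.56 with shPC28, 17.41, 17.30 and 17.41 with shPC25, and 17.48, 17.58 and 17.55 in scram. The shPC28 arrays overlapped scram and the shPC25 arrays lay below it. Neither difference passed the test: it was 0.01 with shPC28 (interval -0.19 to 0.20, adjusted p = 0.959) and -0.16 with shPC25 (interval -0.36 to 0.03, adjusted p = 0.225). At this brightness a probe set may respond less than in proportion, which was not tested. When the variance was allowed to depend on signal, the same -0.16 with shPC25 had an adjusted p of 0.00233.

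Tap1 and Tap2 encode the chains that pair to form the TAP transporter. Tap1 read 12.19, 12.33 and 11.93 with shPC28, 11.87, 11.98 and 12.00 with shPC25, and 12.35, 12.11 and 12.19 in scram. Its difference was -0.07 with shPC28 (interval -0.35 to 0.21, adjusted p = 0.702) and -0.27 with shPC25 (interval -0.55 to 0.01, adjusted p = 0.175), so neither hairpin changed it by the test. Tap2 was different in that its shPC28 arrays lay below all others. It read 10.56, 10.90 and 10.87 with shPC28, 10.91, 11.26 and 11.16 with shPC25, and 11.66, 11.52 and 11.33 in scram. Tap2 fell by 0.73 log2 units with shPC28 (1.65-fold, interval -1.05 to -0.40, adjusted p = 0.00294), a call that held under all 19 alternatives. With shPC25 its difference was -0.39 (interval -0.72 to -0.07, adjusted p = 0.0892), with all shPC25 arrays below all scram arrays. Within arrays, and set to 0 at the scram mean, Tap2 minus Tap1 was -0.92, -0.72 and -0.35 with shPC28, -0.25, -0.01 and -0.13 with shPC25, and 0.02, 0.12 and -0.15 in scram, a difference chosen after its values were seen and not tested.

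Tapbp encodes tapasin. Its signal was 13.18, 12.90 and 13.26 with shPC28, 13.42, 13.56 and 13.63 with shPC25, and 13.48, 13.55 and 13.23 in scram. Both hairpins overlapped scram, while the shPC28 arrays lay below the shPC25 arrays. The difference was -0.31 with shPC28 (interval -0.61 to -0.01, adjusted p = 0.096) and 0.12 with shPC25 (interval -0.18 to 0.42, adjusted p = 0.599).

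Psmb8 and Psmb9 encode catalytic subunits that replace the constitutive ones when the proteasome is rebuilt as an immunoproteasome. Psmb8 read 12.61, 12.77 and 12.82 with shPC28, 11.94, 11.99 and 11.70 with shPC25, and 12.23, 12.09 and 12.30 in scram. The hairpins lay on opposite sides of scram with no overlap. Psmb8 rose by 0.53 log2 units with shPC28 (1.44-fold, interval 0.26 to 0.79, adjusted p = 0.00534), under all 19 alternatives, and its difference with shPC25 was -0.33 (interval -0.59 to -0.07, adjusted p = 0.0782). Psmb9 read 9.88, 9.70 and 9.43 with shPC28, 8.85, 9.02 and 9.15 with shPC25, and 9.59, 9.48 and 9.43 in scram. Its shPC25 arrays were the lowest and its shPC28 arrays overlapped scram. It fell by 0.49 with shPC25 (1.41-fold, interval -0.80 to -0.19, adjusted p = 0.0324), and its difference with shPC28 was 0.17 (interval -0.14 to 0.48, adjusted p = 0.352). The shPC25 call was lost (adjusted p 0.0672 to 0.106) without any 1 scram array or without shPC25 replicate 1 or 2. Quantile normalization put the shPC28 difference at 0.54 (adjusted p = 0.00778) and that of shPC25 at -0.34 (adjusted p = 0.0899).

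Cd274 had the largest change of the 9 members with either hairpin. It read 3.63, 3.84 and 4.30 with shPC28, 4.63, 5.18 and 4.77 with shPC25, and 6.36, 6.16 and 6.09 in scram. No array of one group overlapped another group, and the order was shPC28, shPC25, scram from low to high. On the shPC28 arrays the signal lay under the receptor yardstick, with 22.1%, 14.7% and 8.56% of receptor probe sets at or above it. On the shPC25 arrays that share was 3.75%, 1.27% and 1.77%, and on each scram array 0.283%. The fall with shPC28 was 2.28 log2 units as measured (95% interval -2.73 to -1.83, adjusted p = 2.12e-05). Because the shPC28 signal was within the receptor range, it gives a bound: Cd274 was at least 3.18-fold lower with shPC28 than in scram. With shPC25 the fall was 1.34 log2 units (2.54-fold, interval -1.79 to -0.89, adjusted p = 0.00198). Both calls held under all 19 alternatives, with measured log2 changes of -2.48 to -2.10 for shPC28 and -1.50 to -1.09 for shPC25.

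**Figure D3:**
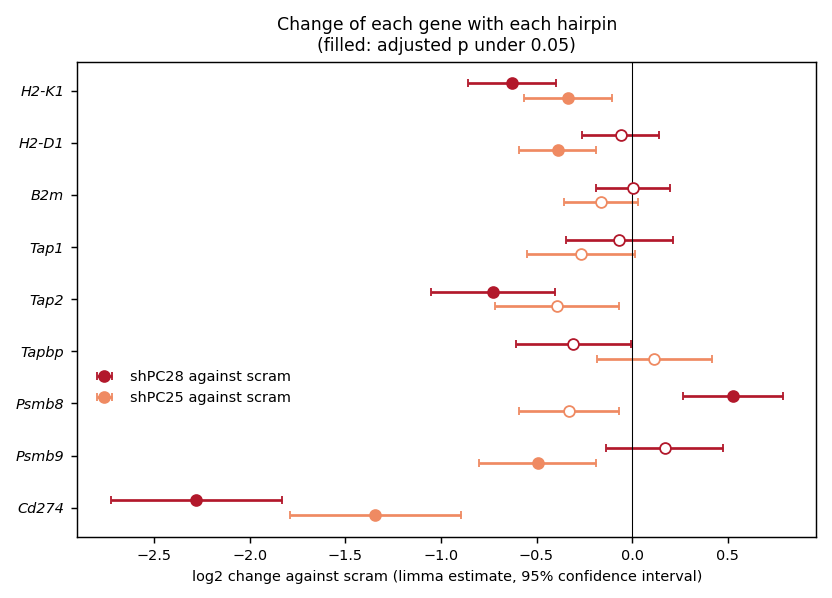
Log2 change against scram (x axis) of each gene with shPC28 (dark red, upper) and shPC25 (light red, lower), as limma estimates with 95% confidence intervals and filled points for an adjusted p under 0.05. Cd274 lies furthest from 0 with both hairpins, at -2.28 as measured (a fall of at least 1.67) and -1.34, and Psmb8 lies on opposite sides of 0.

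Set directly against each other, the hairpins differed in 5 of the 9 members, against 26.2% of all probe sets. Psmb8 was 0.86 log2 units higher with shPC28 than with shPC25 (1.81-fold, adjusted p = 0.000725), Psmb9 was 0.66 higher (1.58-fold, adjusted p = 0.00645) and H2-D1 was 0.33 higher (1.26-fold, adjusted p = 0.0246). Cd274 was lower with shPC28 than with shPC25 (adjusted p = 0.00768). With the shPC28 signal in the receptor range, the size of that difference is a bound of at least 1.25-fold, where the signals as measured differed by -0.94 log2 units. Tapbp was lower too (-0.42, adjusted p = 0.0441). The arrays of the hairpins did not overlap for 8 members, against 39.5% of all probe sets, the exception being Tap1. The remaining differences were -0.30 for H2-K1 (interval -0.53 to -0.07, adjusted p = 0.0614), -0.33 for Tap2 (interval -0.66 to -0.01, adjusted p = 0.125), 0.17 for B2m (interval -0.02 to 0.36, adjusted p = 0.183) and 0.20 for Tap1 (interval -0.08 to 0.48, adjusted p = 0.282).

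In this comparison the calls of Psmb8, Psmb9 and Cd274 held under all 19 alternatives. That of H2-D1 was lost without shPC25 replicate 3 (adjusted p = 0.0879), shPC28 replicate 2 (0.0507) or shPC28 replicate 3 (0.0695), and that of Tapbp without any 1 of 7 arrays (0.0548 to 0.127, all but scram replicate 3 and shPC28 replicate 3). By order of the group means, 5 members (H2-D1, B2m, Tap1, Psmb8 and Psmb9) were lowest with shPC25, as Pcx was, and 4 (H2-K1, Tap2, Tapbp and Cd274) were lowest with shPC28.

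Of 115 further genes on 9 lists of presentation and checkpoint functions, 102 were measured. With shPC28, 27 rose and 25 fell (51% of those measured, against 41.7% of all probe sets), with a median log2 change of 0.03. With shPC25, 8 rose and 23 fell (30.4%, against 20.4%), with a median of -0.06. Between the hairpins 34 differed (33.3%, against 26.2%). No gene was changed in opposite directions by the hairpins.

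**Figure D4:**
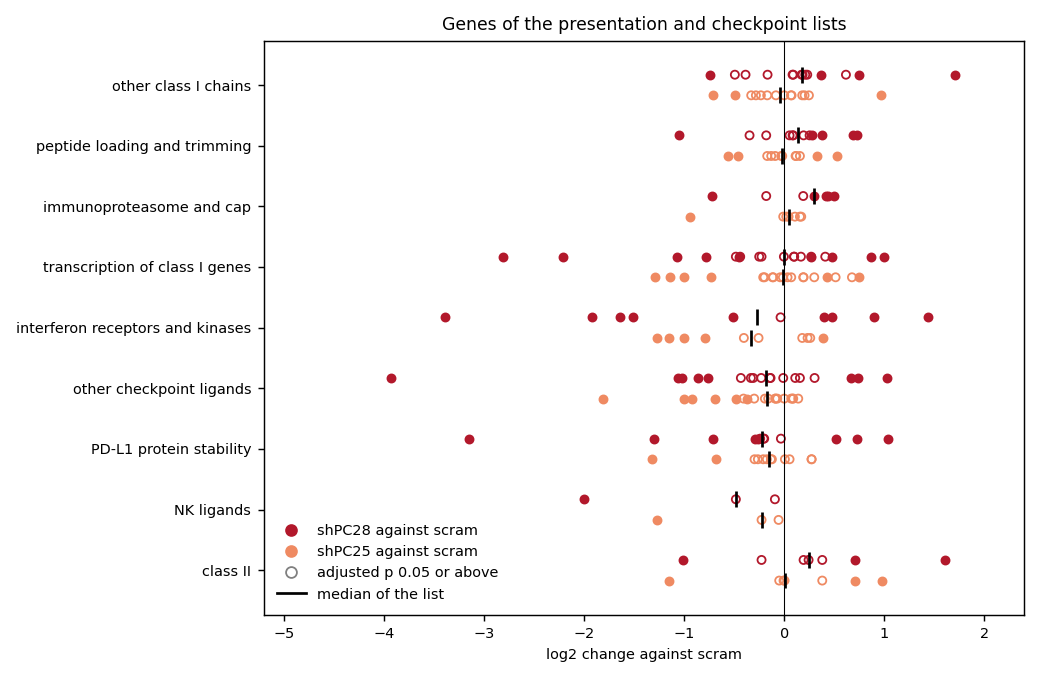
Log2 change against scram (x axis) of every measured gene of the 9 lists (rows), with shPC28 above and shPC25 below in each row, filled points for an adjusted p under 0.05 and black ticks for list medians. The points furthest to the left are Cd276, Socs1 and Cmtm6 with shPC28, and that of Socs1 (-3.39 as measured) stands for a fall of at least 1.68.

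Among the 14 measured class I chains other than H2-K1 and H2-D1, 3 rose and 1 fell with shPC28 (28.6%, against 41.7% of all probe sets). With shPC25, 1 rose and 2 fell (21.4%, against 20.4%). The share was thus below that of all probe sets with shPC28 and near it with shPC25. H2-T24, a non-classical chain, rose with both, by 1.71 log2 units with shPC28 (adjusted p = 0.000977) and 0.97 with shPC25 (adjusted p = 0.0394). H2-Q2 rose with shPC28 (0.74, adjusted p = 0.00128) and H2-T10 fell with shPC25 (-0.50, adjusted p = 0.00934). Fcgrt, the heavy chain of the neonatal Fc receptor, which pairs with the same light chain, fell with both (-0.74, adjusted p = 0.00657 with shPC28, and -0.71, adjusted p = 0.0178 with shPC25). The H2-T24 call with shPC25 was lost (adjusted p 0.052 to 0.121) without any 1 of 7 arrays, namely scram replicates 1 and 3, shPC25 replicates 1 and 3 and each shPC28 replicate. That of Fcgrt with shPC25 was lost without scram replicate 1 or 2 or shPC25 replicate 1 or 3 (0.0524 to 0.0637), and that with shPC28 after quantile normalization (-0.20, adjusted p = 0.371).

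Of 12 measured genes of peptide trimming and loading, 4 rose and 1 fell with shPC28 (41.7%, the same share as of all probe sets). With shPC25, 2 rose and 2 fell (33.3%, against 20.4%). Hspa5, the chaperone BiP, fell with shPC28 (-1.05, adjusted p = 2.15e-05) and with shPC25 (-0.46, adjusted p = 0.00796). Tpp2, a cytosolic peptidase that trims proteasome products, rose with both (0.69, adjusted p = 0.000164 with shPC28, and 0.53, adjusted p = 0.00302 with shPC25). Tapbpl, the tapasin-related peptide editor, read 10.27, 10.13 and 10.29 with shPC28, 9.33, 9.57 and 9.54 with shPC25, and 9.67, 9.37 and 9.46 in scram. It rose with shPC28 (0.73, adjusted p = 0.000823), where its relative Tapbp did not pass the test, and its difference with shPC25 was -0.02 (adjusted p = 0.93). Sec61a1, a channel protein of the endoplasmic reticulum, rose with shPC28 (0.38, adjusted p = 0.00775). Erap1, which trims peptides inside the endoplasmic reticulum, fell with shPC25 (-0.56, adjusted p = 0.0236), though not without scram replicate 2 or 3 or shPC25 replicate 2 (0.0677 to 0.0852), and was at -0.35 with shPC28 (adjusted p = 0.0813). Pdia3, which bridges tapasin and the heavy chain, was at 0.05 with shPC28 (adjusted p = 0.717) and -0.09 with shPC25 (adjusted p = 0.608).

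Of 7 measured proteasome genes besides Psmb8 and Psmb9, 4 rose and 1 fell with shPC28 (71.4%, against 41.7% of all probe sets). With shPC25, 0 rose and 1 fell (14.3%, against 20.4%). Those that rose with shPC28 included Psmb6 (0.50, adjusted p = 0.00259), the constitutive subunit that Psmb9 replaces, and the cap subunits Psme1 (0.41, adjusted p = 0.00664) and Psme2 (0.43, adjusted p = 0.00519). Psmb10, the remaining catalytic subunit of the immunoproteasome, read 8.52, 8.31 and 7.69 with shPC28, 7.91, 8.30 and 7.64 with shPC25, and 8.65, 8.95 and 9.08 in scram. It fell with both, by 0.72 log2 units with shPC28 (adjusted p = 0.0392) and 0.94 with shPC25 (adjusted p = 0.0243), so with shPC28 Psmb8 and Psmb10 changed in opposite directions. The Psmb10 call with shPC28 was lost without scram replicate 2 or 3, shPC25 replicate 1 or shPC28 replicate 2 or 3 (0.0551 to 0.12) and after quantile normalization (-0.21, adjusted p = 0.535). With shPC25 it was lost without scram replicate 2 or 3 or shPC25 replicate 1 or 3 (0.0688 to 0.0854). Psme1, Psme2 and Sec61a1 were no longer called with shPC28 when arrays were centred on the olfactory receptor probe sets (0.21, 0.23 and 0.18, adjusted p = 0.112, 0.0819 and 0.181).

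Among 19 measured transcription factors of class I genes, 4 rose and 5 fell with shPC28 (47.4%, near the 41.7% of all probe sets). With shPC25, 2 rose and 4 fell (31.6%, against 20.4%). Rfx5 encodes a subunit of the RFX complex, which binds the X box beside the X2 core shown above. It read 6.68, 5.83 and 6.88 with shPC28, 8.08, 8.11 and 8.19 with shPC25, and 9.14, 9.35 and 9.32 in scram, a fall of 2.81 log2 units with shPC28 (adjusted p = 1.77e-05) and 1.14 with shPC25 (adjusted p = 0.00963). Nfya encodes a subunit of NF-Y, the factor that binds CCAAT boxes. Its signal was 9.52, 9.73 and 9.23 with shPC28, 10.43, 10.29 and 10.50 with shPC25, and 11.86, 11.56 and 11.68 in scram, a fall of 2.21 with shPC28 (adjusted p = 4.4e-06) and 1.29 with shPC25 (adjusted p = 0.000548). Irf1, an activator that binds interferon response elements, read 9.15, 9.16 and 9.12 with shPC28, 9.48, 9.66 and 9.32 with shPC25, and 10.26, 10.16 and 10.23 in scram, and fell by 1.07 (adjusted p = 4.29e-05) and 0.73 (adjusted p = 0.00177). In all 3 genes the groups were free of overlap. Irf2, which binds the same elements and can oppose Irf1, rose by 0.99 with shPC28 (adjusted p = 6.1e-05) and 0.74 with shPC25 (adjusted p = 0.00151).

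Of 10 interferon receptor and signalling genes, 4 rose and 5 fell with shPC28 (90%, against 41.7% of all probe sets). With shPC25, 1 rose and 4 fell (50%, against 20.4%). Ifnar1 and Ifnar2 encode the chains of the type I interferon receptor and changed in opposite directions. Ifnar1 fell by 1.64 log2 units with shPC28 (adjusted p = 1.57e-05) and 1.15 with shPC25 (adjusted p = 0.000668), and Ifnar2 rose by 0.90 (adjusted p = 4.61e-05) and 0.39 (adjusted p = 0.0156). The Ifnar2 call with shPC25 was lost without scram replicate 2 (adjusted p = 0.0619) or shPC25 replicate 1 (0.0589). Socs1, a feedback inhibitor of JAK signalling, read 3.11, 2.84 and 2.51 with shPC28, 5.03, 5.25 and 4.55 with shPC25, and 6.22, 6.31 and 6.11 in scram. It was within the receptor range on all shPC28 arrays, at least 3.2-fold lower than in scram (adjusted p = 2.64e-06 for the difference as measured). With shPC25 it fell by 1.27 (adjusted p = 0.00285). Socs3, a related inhibitor, rose with shPC28 (1.44, adjusted p = 2.77e-05) and was at 0.23 with shPC25 (adjusted p = 0.26). Ifngr1, the ligand-binding chain of the interferon gamma receptor, was chosen after its values were seen: it read 8.32, 7.94 and 7.58 with shPC28, 9.45, 9.72 and 9.23 with shPC25, and 9.61, 9.94 and 10.06 in scram. It fell by 1.92 with shPC28 (adjusted p = 8.31e-05), and its difference with shPC25 was -0.40 (interval -0.88 to 0.07, adjusted p = 0.225).

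Of 18 measured checkpoint ligands other than Cd274, 3 rose and 5 fell with shPC28 (44.4%, against 41.7% of all probe sets), and 0 rose and 6 fell with shPC25 (33.3%, against 20.4%). Cd276 encodes B7-H3, a ligand of the family of PD-L1. It read 6.60, 6.77 and 7.15 with shPC28, 8.97, 8.87 and 9.04 with shPC25, and 10.54, 10.91 and 10.87 in scram. With no overlap between groups, it fell by 3.93 log2 units with shPC28 (adjusted p = 5.63e-07) and 1.81 with shPC25 (adjusted p = 0.000211). Pvr, the ligand of TIGIT and CD226, fell by 1.02 with shPC28 (adjusted p = 3.2e-05) and 0.92 with shPC25 (adjusted p = 0.000384), and Vsir, which encodes VISTA, by 0.77 (adjusted p = 0.000521) and 1.0 (adjusted p = 0.000566). Lgals9, which encodes galectin-9, rose with shPC28 (0.73, adjusted p = 0.000266) and was at 0.14 with shPC25 (adjusted p = 0.367). Pdcd1lg2, the gene of PD-L2, lay within the receptor range on all 9 arrays, between 2.22 and 3.29, so no fold is given.

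Genes known to act on the PD-L1 protein were measured for all 12 listed. Of these, 3 rose and 5 fell with shPC28 (66.7%, against 41.7% of all probe sets). With shPC25, 0 rose and 2 fell (16.7%, against 20.4%). Cmtm6, which in human cells keeps PD-L1 at the surface and out of lysosomes, read 7.97, 8.05 and 9.00 with shPC28, 10.08, 10.15 and 10.27 with shPC25, and 11.54, 11.64 and 11.28 in scram. It stood in the same order as Cd274, with falls of 3.15 log2 units with shPC28 (adjusted p = 1.28e-05) and 1.32 with shPC25 (adjusted p = 0.00653). Gsk3b, a kinase that marks PD-L1 for destruction, fell with shPC28 (-1.30, adjusted p = 7.23e-06) and was at -0.26 with shPC25 (adjusted p = 0.0821). Btrc, the ligase subunit that acts after that kinase, rose with shPC28 (1.03, adjusted p = 0.00015) and was at 0.27 with shPC25 (adjusted p = 0.166). Cul3, the scaffold of another ligase of PD-L1, fell with both (-0.71, adjusted p = 0.00013 with shPC28, and -0.68, adjusted p = 0.000853 with shPC25). PD-L1 protein was not measured in these files.

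Ligands of natural killer cell receptors and class II genes were the remaining lists. Of 3 measured natural killer ligands, 1 fell with each hairpin (33.3%, against 41.7% of all probe sets with shPC28 and 20.4% with shPC25). This was Ulbp1, a ligand of NKG2D. It read 9.13, 9.48 and 9.05 with shPC28, 9.82, 10.05 and 9.98 with shPC25, and 11.07, 11.27 and 11.31 in scram, a fall of 2.0 log2 units with shPC28 (adjusted p = 5.6e-06) and 1.27 with shPC25 (adjusted p = 0.000485). Of 7 measured class II genes, 2 rose and 1 fell with each hairpin (42.9%, against 41.7% of all probe sets with shPC28 and 20.4% with shPC25). H2-Oa, which restrains peptide exchange on class II, rose by 1.61 with shPC28 (adjusted p = 7.21e-05) and 0.98 with shPC25 (adjusted p = 0.00465). H2-DMa and H2-DMb1 encode the chains of the exchange factor H2-DM and did not move together: H2-DMb1 fell by 1.01 with shPC28 (adjusted p = 0.000443) and 1.15 with shPC25 (adjusted p = 0.000946), and H2-DMa rose with shPC28 (0.70, adjusted p = 0.00105) and was at -0.01 with shPC25 (adjusted p = 0.978). H2-Ab1, a chain of the peptide-presenting class II molecule, was above the receptor range on the 3 shPC25 arrays only. With shPC25 it was at least 1.35-fold higher than in scram (adjusted p = 0.0102 for the difference as measured).

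**Figure D5:**
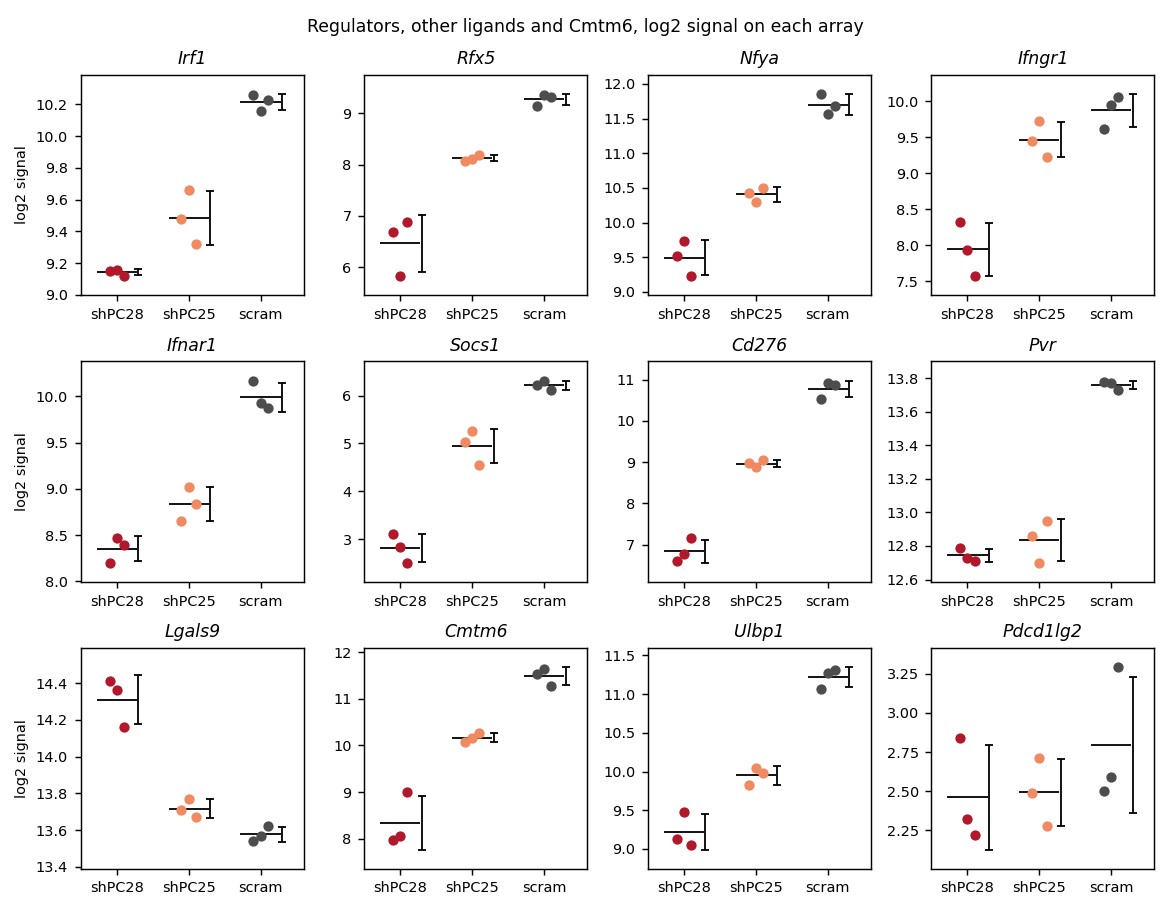
Log2 signal (y axis, a separate range in each panel) of 12 regulators, ligands and stability genes on each array, in the order shPC28, shPC25 and scram, with points for arrays, bars for group means and error bars for the SD over 3 arrays. Cd276 and Cmtm6 step up from shPC28 to scram with shPC25 between them, and Pdcd1lg2 lies within the receptor range in all groups.

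The hairpins differed directly in many of these genes. Shown by shPC28 against shPC25, Cd276 (-2.12, adjusted p = 3.99e-05), Cmtm6 (-1.83, adjusted p = 0.000779), Rfx5 (-1.66, adjusted p = 0.000935), Ifngr1 (-1.52, adjusted p = 0.000822) and Nfya (-0.91, adjusted p = 0.00168) were lower. Socs1 was at least 1.33-fold lower, again a bound (adjusted p = 0.000117 for the difference as measured). Socs3 (1.20, adjusted p = 0.000228), Tapbpl (0.75, adjusted p = 0.00151) and Lgals9 (0.59, adjusted p = 0.00202) were higher. Of the 34 list genes that differed between the hairpins, 30 stood further from scram as measured with shPC28. The remaining 4 stood further with shPC25 (H2-T10, H2-T22, Mr1 and Icosl, of which H2-T22, Mr1 and Icosl were named after their values were seen). The same count over all probe sets was not made. Of all probe sets, 41.7% were called against scram with shPC28 and 20.4% with shPC25. For Pvr the difference between hairpins was -0.09 (interval -0.31 to 0.12, adjusted p = 0.523) and for Psmb10 it was 0.22 (interval -0.32 to 0.77, adjusted p = 0.551).

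The genes whose signal followed each of H2-K1, B2m and Cd274 most closely over the 9 arrays were sought among named probe sets with a mean above the median of all. The arrays fall into 3 groups, so these values of Pearson's r mostly follow the order of the group means and are given as a description. Most like H2-K1 were Zfp248 (0.9898), Rnf14 (0.9873), Dzip1 (0.9836), Tnfaip6 (0.9834) and Mfhas1 (0.9827). Those most like B2m were Ptpn6 (0.9856), Afg3l1 (0.9731), Snap23 (0.9458), Sp100 (0.9455) and Slc31a1 (0.9431). For Cd274 they were Zmynd8 (0.9944), Crebl2 (0.9943), Dnajc22 (0.9935), Sertad1 (0.9924) and Ccdc82 (0.9921).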

How the data were processed

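Total RNA of the 9 E0771 samples was labelled with biotin and hybridised to Clariom S arrays, and the authors turned scans into signals in the Transcriptome Analysis Console. The deposited values were taken as log2 signals, 1 per probe set, normalized between arrays by the authors. Base 2 was read from the values, which ran from 1.51 to 18.64. The normalization algorithm is not given in the sources used here, nor is the genome build. Of 22206 probe sets, 19572 had 1 gene symbol in the platform annotation and 2634 had none here. The number of arrays limits the precision, and the median standard error of a log2 change was 0.16. Arrays of 1 group correlated at 0.995 to 0.998 across probe sets.

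All 9 arrays entered 1 linear model with a term for each group in limma 3.58.1 under R 4.3.3 (lmFit and eBayes), with two-sided p-values adjusted by the Benjamini-Hochberg method over all probe sets. No probe set was removed. The fit was tested on simulated data. The members, the 9 lists and the rules were chosen with earlier results of these data known. Named were all members, Pcx, from each list up to 4 changed genes by smallest p against scram, and Irf1, Rfx5, Psmb10, Psme1, Psme2, Pdia3, Erap1, Pdcd1lg2, Cd276, Cmtm6 and Pvr whatever their values. The 10 settings besides leaving out each of the 9 arrays were 2 other variance models, array weights, quantile normalization, centring on array medians or on olfactory receptor probe sets, removal of the lowest 25% or 50% of probe sets by mean, only the arrays compared, and a replicate block. Promoter sequences came from RefSeq (GRCm38.p6).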

Additional observations from a re-analysis of the deposited data

Results flagged for a closer look

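By the limma test of shPC28 against shPC25, the effect differed between the hairpins for 5 of the 9 measured genes. Over all probe sets, 26.2% were called in that comparison. The log2 differences were 0.86 for Psmb8 (adjusted p = 0.000725), 0.66 for Psmb9 (adjusted p = 0.00645), 0.33 for H2-D1 (adjusted p = 0.0246), -0.42 for Tapbp (adjusted p = 0.0441) and -0.94 as measured for Cd274 (adjusted p = 0.00768). Cd274 lay in the receptor range on all 3 shPC28 arrays, so its difference is a bound, at least 1.25-fold lower with shPC28 than with shPC25. The calls of Psmb8, Psmb9 and Cd274 held under all 19 alternative settings, those of H2-D1 and Tapbp under only 12 and 8 of them. Groups of 3 arrays are too small for the check on single outlying arrays.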

How the results depend on the processing

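The count of members changed with shPC28 against scram was 4. It was 5 with a variance trend on signal (also in its robust form), after quantile normalization and with the dimmer 50% of probe sets removed, 6 with arrays centred on olfactory receptor probe sets, and 4 under the other settings and without any 1 array. With shPC25 it was 4, and it was 7 with the trend (also in its robust form), 2 after quantile normalization, 2 after centring on array medians, and 1 to 4 without 1 array. For shPC28 against shPC25 it was 5, 8 with the trend, 3 with only the compared arrays, and 3 to 5 without 1 array. For both hairpins together it was 4, and 3 without any 1 array. Calls over all 22206 probe sets moved too. With shPC28 they were 9265, with 9705 under the trend, 8924 after quantile normalization and 8508 after olfactory receptor centring. With shPC25 they were 4541, with 5784 under the trend, 4581 after quantile normalization, 5127 after median centring and 3021 to 4512 without 1 array. Between the hairpins they were 5829, with 6855 under the trend and 4793 for only the compared arrays. Of the 102 measured list genes, 52 changed with shPC28 (44 to 53 without 1 array), 31 with shPC25 (23 to 30), 34 between the hairpins (23 to 30) and 49 with both (36 to 49).

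The labels do not say what the replicate numbers stand for. Deviations from the group means correlated at -0.184 to -0.139 for same-numbered arrays of different groups, and at 0.047 to 0.133 for arrays with different numbers. The cause of this was not tested. With the replicate block, members changed were 1 with shPC25 and 3 between the hairpins, and list genes between the hairpins were 22. Calls over all probe sets were 8074 with shPC28 (9265 without the block), 3073 with shPC25 (4541 without) and 4552 between the hairpins (5829 without).

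Of 675 member values under other settings, 596 kept their call, 55 lost it, 24 gained one and 0 called values reversed, while 15 uncalled values changed sign. For the other named genes, 2590 of 2759 values kept their call, 132 lost it and 37 gained one. The share of all calls that were higher was 50.8% with shPC28 and 44.9% with shPC25. It was 60.7% and 61.5% after centring on array medians, and 31.5% and 32% with arrays centred on olfactory receptor probe sets. Median centring put the median of all probe sets at 0.20 and 0.14.

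Signal near the receptor range limits Cd274 and Socs1 with shPC28. The response of the B2m probe set at its brightness was not tested. The cause of lost calls was not tested.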
